A study of Homo sapiens with 4 samples.

Results

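Histone mRNAs were examined in the PAR-CLIP data of DHX36, a DEAH-box helicase that unwinds G-quadruplexes, which are stacked structures of guanine-rich RNA or DNA. The genes were taken by symbol from the deposited table, as all symbols that begin with HIST1H to HIST4H or that consist of H1F, H2AF or H3F followed by letters and digits. This gave 90 of the 26490 genes listed, of which 73 were HIST genes, called replication-dependent here, and 17 were H1F, H2AF or H3F genes, called replacement genes here. Symbol and expression need not match, since HIST1H1T and HIST3H3 are known as testis genes although their symbols begin with HIST.

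The 2 cell lines were HEK293 cells, a human embryonic kidney line, that carried a tetracycline-inducible, HA- and FLAG-tagged DHX36. FH-DHX36 is isoform 2 with an intact helicase domain, and FH-DHX36-E335A is isoform 1 with the E335A mutation that abolishes helicase activity, so isoform and mutation cannot be told apart. The endogenous DHX36 was not removed from these lines for PAR-CLIP. Both lines were induced for 15 h with 500 ng/ml tetracycline, fed 4-thiouridine and irradiated at 365 nm for 5 min, and RNA bound to the tagged protein was recovered with an anti-FLAG antibody. Each line was sampled in 2 replicates, but the table holds 1 value per gene and line. No spread between replicates and no test between the lines can therefore be given, and the 95% intervals below cover counting error only. The table listed 2160413 crosslinked reads in 16742 clusters for FH-DHX36 and 8752127 crosslinked reads in 60208 clusters for FH-DHX36-E335A, a 4.05-fold difference in depth. A cluster is a group of overlapping reads with the T-to-C changes that crosslinked 4-thiouridine leaves, and no gene without a cluster had a crosslinked read in the table. A gene at 0 is thus one for which no cluster is listed, and it cannot be given a lower limit in reads.

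Replication-dependent histone genes encode the bulk of the linker histone H1 and of the core histones H2A, H2B, H3 and H4 that package newly made DNA in S phase. Their mRNAs are the known exception among animal mRNAs in that they end in a conserved stem-loop in place of a poly(A) tail, and the stem-loop binding protein SLBP binds this structure for processing, translation and decay. Most lie in gene clusters and lack introns. Replacement histones, such as H2A.Z and H3.3, are made throughout the cell cycle from mRNAs that are polyadenylated and often spliced. Among the 17 genes called replacement here, 10 had a single exon in the reference transcript. Of the replacement genes, H2AFX is known to give rise to both stem-loop and polyadenylated mRNAs.

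The stem-loop, the feature that sets the 2 families apart, was searched for in the reference transcripts as GG, any 2 bases, CTTTT, any base, AG, any 2 bases and CC, on the strand of the transcript and up to 200 nt beyond its end. It was present in 67 of the 70 HIST genes that matched an annotated gene, and H2AFX was the only 1 of the 17 replacement genes that held it. Among 19540 protein-coding transcripts, 84 (0.430%) held the sequence, 63 of them histone genes of the rule. With up to 1 mismatch it was found in all 70 HIST genes and in 648 of all transcripts. The genes with the most crosslinked reads of each histone type, H4, H3, H1, H2B and H2A, follow with H2AFX, in GRCh37 (hg19) coordinates, with the 16-nt stem and loop in capitals and 5 flanking bases on either side.
HIST1H4C, chr6:26104540-26104565, + strand, starting 57 nt after the stop codon: ccaaaGGCCCUUUUCAGGGCCgcuca
HIST1H3B, chr6:26031820-26031845, - strand, 37 nt after the stop codon: ccaaaGGCUCUUUUCAGAGCCaccca
HIST1H1C, chr6:26055967-26055992, - strand, 27 nt after the stop codon: caaaaGGCUCUUUUCAGAGCCaccac
HIST1H2BD, chr6:26158810-26158835, + strand, 36 nt after the stop codon: ccaaaGGCUCUUUUAAGAGCCacgca
HIST1H2AH, chr6:27115320-27115345, + strand, 30 nt after the stop codon: acaaaGGCUCUUUUCAGAGCCauucu
H2AFX, chr11:118965603-118965628, - strand, 49 nt after the stop codon: acaaaGGCCCUUUUAAGGGCCaccac
All 6 lie in the 3'UTR. The form GGCUCUUUUCAGAGCC occurred in 40 of the 67 HIST genes and in H1, H2A, H2B and H3 genes alike, but in no H4 gene. The 13 H4 genes with a stem-loop had GGCCCUUUUCAGGGCC (9 genes) or GGCCCUUUUUAGGGCC (4 genes), and neither form was found in a HIST gene of another type. Counted over the 6 pairs of the stem, H4 genes, which received most of the reads described below, had 5 G-C pairs, and the commonest form of the other types had 4.

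Guanine runs, the sequence feature DHX36 is known to bind, were counted as 4 or more runs of at least 2 G with 1 to 7 bases between them. These bases could themselves be G, so a long run of G could count as more than 1 run, as in the H1F0 example below. HIST transcripts held 2.98 such stretches per kb and replacement transcripts 3.70 per kb, against 2.30 per kb over all protein-coding transcripts. Stretches of 4 runs of at least 3 G were found in 2 HIST genes (HIST1H4A and HIST2H2AA3) and 3 replacement genes (H1F0, H2AFJ and H2AFY). Per kb this was 0.0547 for HIST and 0.172 for replacement transcripts, against 0.0953 over all. The HIST value rests on 2 genes, and no difference from all transcripts is read from it. For runs of at least 2 G, HIST transcripts together lay above all transcripts, but the types differed. Per kb, H2A genes held 4.62, H4 4.15, H3 3.71 and H1 2.41 stretches, while H2B genes held 0.589, below the 2.30 over all. Of the 109 stretches in HIST genes, 102 lay in the coding sequence and 5 in a 3'UTR, while the 86 stretches in replacement genes were spread over coding sequence (43), 3'UTR (25) and 5'UTR (17). The 3'UTR stretch of HIST2H2AA3, the one with runs of at least 3 G, and those of HIST2H2BE lie past the stem-loop. An mRNA that ends at the stem-loop would not hold them. HIST1H4C and HIST1H4H each also hold a longer CDS stretch, of 38 nt, that is not printed. Examples from transcripts described below follow, with G runs in capitals (GRCh37), to show some of the forms such stretches take in the CDS and in either UTR.
HIST1H4C, coding sequence, chr6:26104289-26104303, + strand: GGcucGGcgcGGuGG
HIST1H4H, coding sequence, chr6:26285414-26285430, - strand: GGcuucGGuGGcuaaGG
H2AFZ, 5'UTR, chr4:100871393-100871407, - strand: GGaguaGGuGGuGGG
H1FX, 5'UTR, chr3:129035071-129035096, - strand: GGcgccaguGGaagcugcGGcGGcGG
H1F0, 3'UTR, chr22:38202388-38202411, + strand: GGGGuuaGGGauuugcGGGGGGGG
H2AFX, 3'UTR, chr11:118965329-118965344, - strand: GGGGGGaGGccGGcGG
The table gives no position of a cluster within its gene, so neither these stretches nor the stem-loops could be set against the crosslinked positions. No read of HIST1H4H was listed in the CDS in either line, and HIST1H4C had 0 CDS reads with FH-DHX36-E335A and 244 for FH-DHX36.

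HIST genes were bound in both PAR-CLIPs, and a few H4 genes carried most of the reads. With FH-DHX36-E335A, 37 of 73 HIST genes (50.7%) had at least 1 cluster, against 34.5% of all genes in the table. With FH-DHX36, 24 of 73 (32.9%) had a cluster, against 22.4% of all genes. The 24 were all among the 37, and 36 HIST genes (22 of the HIST1, 13 of the HIST2 and 1 of the HIST3 locus) had no cluster in either line. Bound HIST genes had a higher median RNA abundance than all bound genes, as given below. No abundance is available for genes without a cluster, and the part of expression in the share bound was not tested. Together HIST genes received 119529 crosslinked reads with FH-DHX36-E335A, or 1.37% of all reads (1.36 to 1.37), and 26806 with FH-DHX36, or 1.24% (1.23 to 1.26). The 15 H4 genes took 65.4% of these reads with FH-DHX36-E335A (65.1 to 65.7) and 73.5% with FH-DHX36 (72.9 to 74.0).

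HIST1H4C had the most reads of any histone gene with FH-DHX36-E335A, 23235 reads in 2 clusters, and 5174 reads in 3 clusters with FH-DHX36. HIST1H4H had 16016 reads in 1 cluster with FH-DHX36-E335A, and with 5626 reads in 2 clusters it was the top histone gene with FH-DHX36. HIST1H4B had 14120 and 4109 reads and HIST1H4A 9759 and 3034, in the same order of lines. These 4 genes, which encode the same histone H4 protein from different loci on chromosome 6, ranked 11th, 25th, 39th and 88th by crosslinked reads among 9131 bound genes with FH-DHX36-E335A and 36th, 29th, 58th and 92nd among 5930 with FH-DHX36. They held 52.8% of HIST reads with FH-DHX36-E335A and 66.9% for FH-DHX36. Without any H4 gene, HIST genes still had 41376 and 7112 reads.

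Fewer reads fell on the remaining H4 genes. HIST4H4, the lone gene of the HIST4 locus on chromosome 12, had 6761 reads with FH-DHX36-E335A and 656 for FH-DHX36. HIST1H4E had 4620 and 612, and HIST1H4D 3611 and 483. HIST1H4J had 31 reads with FH-DHX36-E335A and no cluster with FH-DHX36. The other 7 H4 genes had no cluster in either line.

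Linker histone H1 genes came next, with 2 genes holding nearly all their reads. HIST1H1C, encoding H1.2, had 8136 reads with FH-DHX36-E335A and 1158 for FH-DHX36. HIST1H1E, encoding H1.4, had 4868 and 1188. HIST1H1D, encoding H1.3, had 441 reads with FH-DHX36-E335A and no cluster with FH-DHX36, and the other 3 H1 genes of the HIST1 locus (HIST1H1A, HIST1H1B and HIST1H1T) had none in either.

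Reads on H3 genes came mostly from a single gene. HIST1H3B, encoding H3.1, had 7721 of the 9096 H3 reads with FH-DHX36-E335A and 1297 of the 1532 with FH-DHX36. HIST1H3D had 884 and 186, and HIST1H3H 194 and 49. HIST1H3A (191 reads) and HIST1H3F (106 reads) had clusters with FH-DHX36-E335A alone, and 9 of the 14 H3 genes had none in either line.

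H2A and H2B genes had lower counts per gene than the leading H4, H3 and H1 genes. Of 18 H2A genes, 11 (61.1%) had a cluster with FH-DHX36-E335A and 6 (33.3%) for FH-DHX36, against 34.5% and 22.4% of all genes, led by HIST1H2AH with 2958 and 810 reads. Of 20 H2B genes, 10 and 6 were bound, led by HIST1H2BD with 3656 reads with FH-DHX36-E335A and 490 for FH-DHX36. HIST1H2BJ had 2160 and 157 reads and HIST1H2AG 1200 and 501. HIST genes with at least 200 reads in FH-DHX36-E335A and no cluster in FH-DHX36 were HIST1H2AM (493 reads), HIST1H1D (441), HIST1H2AL (249), HIST1H2AD (244), HIST1H2BN (223) and HIST1H2BF (222). No HIST gene was bound in FH-DHX36 alone. The lower depth of FH-DHX36 moves with this order, and its part in it was not tested.

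**Figure D1:**
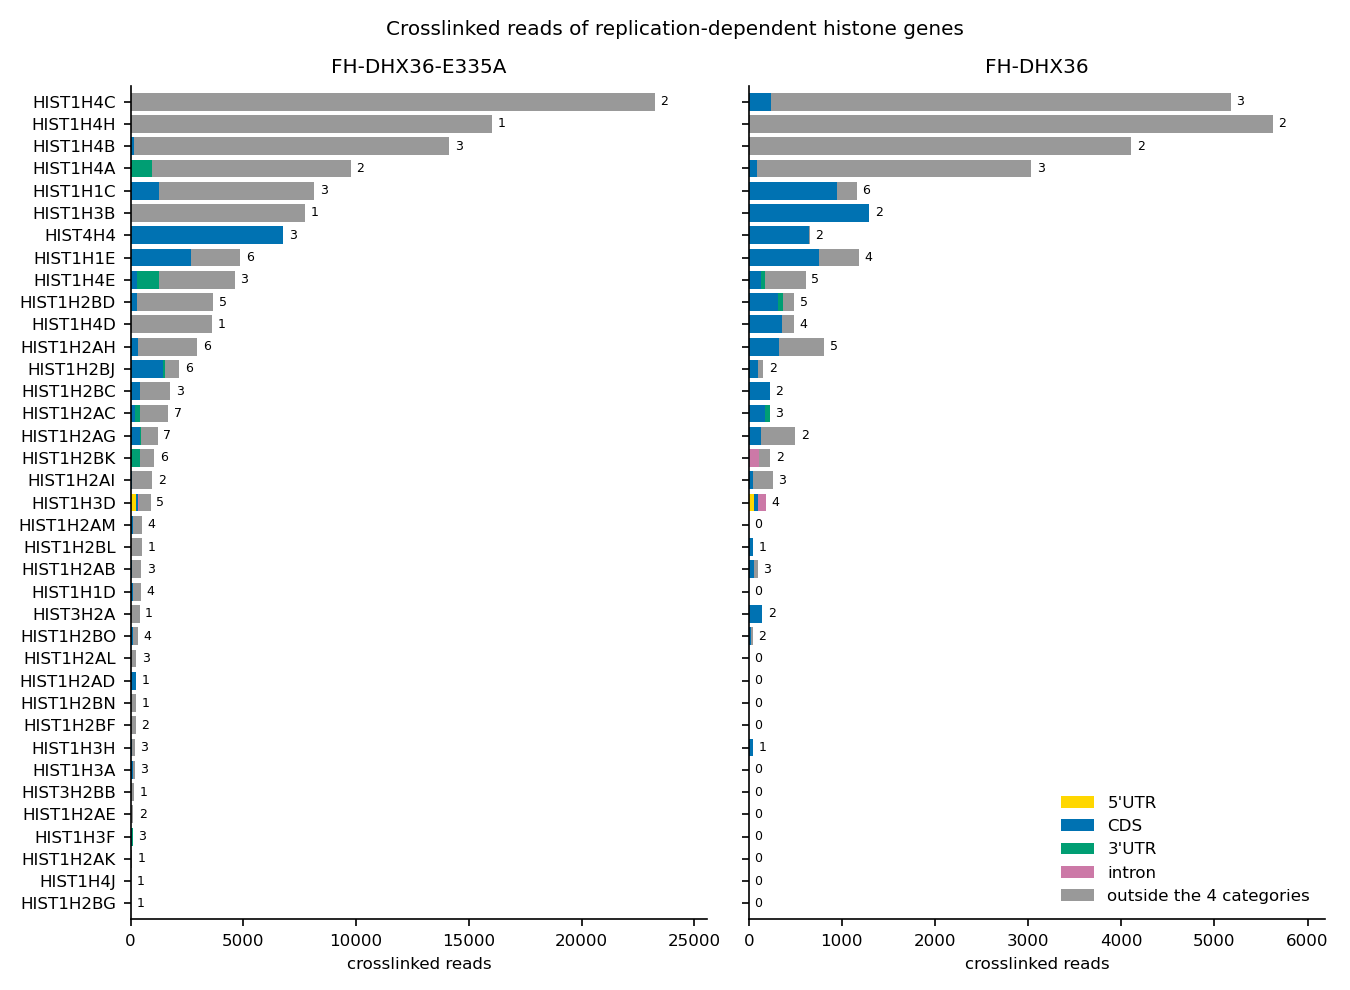
Crosslinked reads of the 37 replication-dependent histone genes with a cluster in at least 1 PAR-CLIP, with FH-DHX36-E335A on the left and FH-DHX36 on the right. Bars are linear read counts split by annotation category, the number after each bar is its number of clusters, and the 2 panels have different read axes. HIST1H4C reaches 23235 reads on the left and HIST1H4H 5626 on the right, and grey, the reads outside the 4 categories, fills over 90% of the bars of HIST1H4A, HIST1H4B, HIST1H4C and HIST1H4H in each panel.

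Most HIST reads lay outside the 4 annotation categories of the table, which are 5'UTR, CDS, 3'UTR and intron. The reads outside were computed as the reads of a gene minus those in the 4 categories, and the table does not say what they overlap. They made up 84.7% of HIST reads with FH-DHX36-E335A (84.5 to 84.9) and 75.5% with FH-DHX36 (75.0 to 76.0), against 21.4% and 16.7% of reads over all genes. H4 genes carried this with FH-DHX36. Without them the share outside was 77.8% with FH-DHX36-E335A (77.4 to 78.2) but 28.9% (27.88 to 29.99) for FH-DHX36, where 66.0% of the remaining reads lay in the CDS. By type it was 88.4% and 92.3% for H4, 80.7% and 54.1% for H2A, 69.8% and 27.3% for H1, 72.5% and 26.2% for H2B and 92.8% and 0% for H3, with FH-DHX36-E335A first. CDS held 12.8% and 23.0% of all HIST reads. The 3'UTR, which held 53.3% and 38.4% of reads over all genes, held 2.27% (2.19 to 2.36) and 0.574% (0.491 to 0.672) of HIST reads. HIST genes made up 5.40% and 5.62% of all reads outside the categories in the whole table.

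Counted by gene, 30 of the 37 HIST genes bound by FH-DHX36-E335A (81.1%) had over 50% of their reads outside the categories, against 12.6% of all bound genes. With FH-DHX36, 8 of 24 (33.3%) did so, against 10.4%. The 4 leading H4 genes had over 90% of their reads outside in each line. HIST1H4H had all of its reads outside in both lines. HIST4H4 differed from them, with 6746 of 6761 reads in the CDS with FH-DHX36-E335A and 645 of 656 with FH-DHX36.

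The category changed between the lines for many genes. Of the 24 HIST genes bound in both, 13 had over 50% of reads outside with FH-DHX36-E335A and 50% or less with FH-DHX36, which was the case for 8.34% of all genes bound in both. For HIST1H3B, all 7721 reads of its 1 cluster with FH-DHX36-E335A were outside, and all 1297 reads of its 2 clusters with FH-DHX36 were in the CDS. HIST1H4D had 3611 of 3611 reads outside with FH-DHX36-E335A and 127 of 483 with FH-DHX36. For HIST1H1C, 6876 of 8136 reads were outside with FH-DHX36-E335A, whereas 945 of 1158 were in the CDS with FH-DHX36. HIST1H1E showed a smaller shift, with 2172 of 4868 reads outside in the first and 428 of 1188 in the second. Across the 24 genes the share outside was higher with FH-DHX36-E335A in 18, lower in 5 and equal in 1. Their number of clusters moved too, as given below, and its part in the shift was not tested.

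Few HIST genes had reads in the 5'UTR or intron columns. HIST1H3D had 229 reads in the 5'UTR and 21 in introns with FH-DHX36-E335A, and 55 and 83 with FH-DHX36. HIST1H2BK had 116 of 231 reads in introns with FH-DHX36, and none there with FH-DHX36-E335A, where 400 of 1046 were in the 3'UTR. HIST4H4 had 15 reads in the 5'UTR with FH-DHX36-E335A. HIST1H3D overlaps a longer annotated gene on its own strand that also covers HIST1H2AD, so reads of these genes cannot be told apart from those of the longer transcript. HIST1H1E, HIST1H4E, HIST1H2BD, HIST1H2AC and HIST1H2AE also lie within longer genes on their own strand in GENCODE release 44 and have the same limit. HIST1H4C, HIST1H4H, HIST1H4D and HIST1H1D overlap an annotated gene on the opposite strand, as do others such as HIST1H3D, HIST1H2AD, HIST1H2BD and HIST1H3F. HIST1H2AM overlaps another histone gene on its own strand, and these lists are not complete. Whether the authors' assignment used strand is not given in the sources used here. All these overlaps are from release 44, and those in release 19, which the authors used, were not checked.

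HIST reads were packed into few, deep clusters. With FH-DHX36-E335A, HIST genes had 111 clusters with 1077 reads per cluster, against 145 over all genes. With FH-DHX36 they had 70 clusters with 383 reads per cluster, against 129 over all genes. HIST1H4H (16016 reads per cluster), HIST1H4C (11618) and HIST1H3B (7721) ranked 1st, 2nd and 3rd of all 9131 genes bound by FH-DHX36-E335A, and 9 of the top 50 were HIST genes. With FH-DHX36, 3 of the top 50 were HIST genes, and HIST1H4H ranked 8th of 5930 with 2813 reads per cluster. Outside H4 the values were lower, at 436 and 145 reads per cluster.

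Between the PAR-CLIPs the share of HIST reads was nearly the same, but the share of clusters was not. HIST reads took a 1.10-fold larger share of all reads with FH-DHX36-E335A than with FH-DHX36 (1.09 to 1.12). By clusters the direction was the opposite, with 0.184% of all clusters with FH-DHX36-E335A and 0.418% for FH-DHX36, a ratio of 0.441. Over reads within the 4 categories alone it was also the opposite, with a ratio of 0.728. Of the 24 HIST genes bound in both lines, 9 had more clusters with FH-DHX36, as did 5.17% of all genes bound in both. Examples were HIST1H1C with 6 clusters against 3, HIST1H4E with 5 against 3 and HIST1H4D with 4 against 1.

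Most of the 24 HIST genes bound in both lines had a share of reads within 2-fold between them. A share at least 2-fold higher with FH-DHX36-E335A was found in 3 of 24 genes (12.5%), against 29.3% of all 5518 genes with a cluster in both and at least 50 reads in 1 line. A share at least 2-fold higher with FH-DHX36 was found in 0 of 24, against 23.0%. The 3 genes were HIST1H2BJ, with a ratio of 3.40 (2.89 to 4.02), HIST4H4, with 2.54 (2.35 to 2.76), and HIST1H2BL, with 2.48 (1.85 to 3.40, from 492 and 49 reads). The other 13 bound HIST genes had 11 to 493 reads with FH-DHX36-E335A and no cluster with FH-DHX36, and with a pseudocount of 1 read the median ratio over all 37 was 1.84. HIST1H2AG had the lowest ratio of the 24, 0.591 (0.532 to 0.658). By type, the ratio was 0.980 for H4 (0.964 to 0.995), 1.07 for H2A (1.02 to 1.12), 1.42 for H1 (1.35 to 1.48), 1.47 for H3 (1.39 to 1.55) and 2.07 for H2B (1.95 to 2.20). Among the leading H4 genes it ran from 0.703 for HIST1H4H to 1.11 for HIST1H4C. The ranks of the 24 genes by reads were similar in the 2 lines (Spearman's rho 0.938, against 0.630 over 5669 genes), a description across genes that share their libraries and are not independent.

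**Figure D2:**
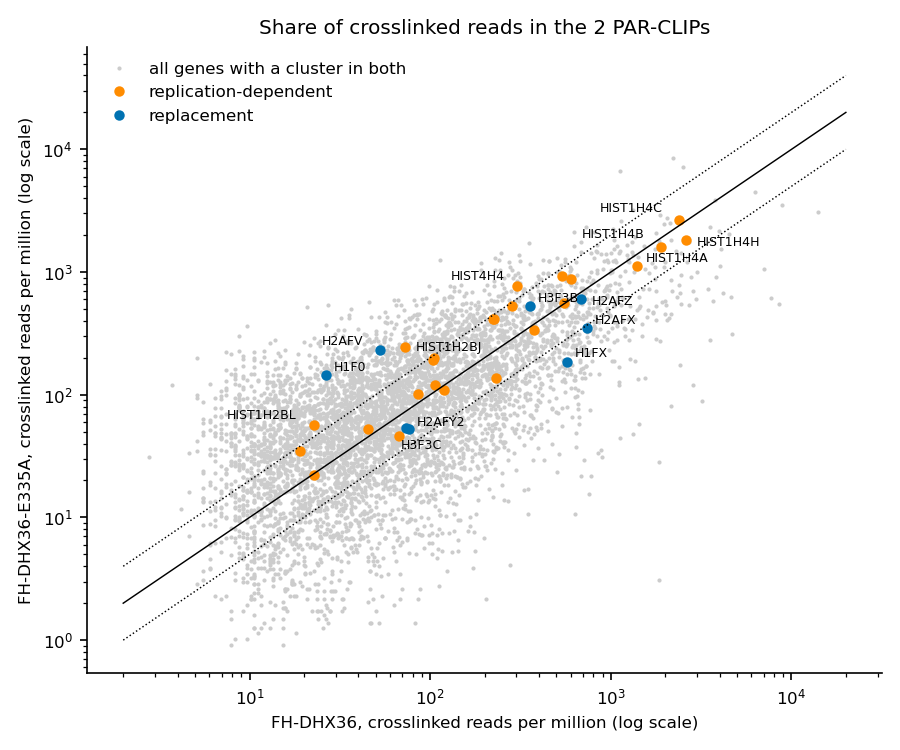
Crosslinked reads scaled to 1000000 reads of the PAR-CLIP, for each gene with a cluster in both, with FH-DHX36 on the horizontal and FH-DHX36-E335A on the vertical log axis, for all genes (grey), replication-dependent (orange) and replacement (blue) histone genes. The solid line marks equal shares and the dotted lines a 2-fold difference. Orange points stay within the dotted lines except for 3 above them, while 4 of the 8 blue points lie outside them, H1F0 and H2AFV above and H1FX and H2AFX below.

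NXPM, normalized crosslinked reads, divides the scaled reads of a gene by RNA abundance, and by this score HIST genes were among the lowest in the table. The median NXPM of bound HIST genes was 0.0318 with FH-DHX36-E335A and 0.0334 for FH-DHX36, against 5.66 and 7.84 over all bound genes. All 37 and all 24 bound HIST genes had an NXPM under 1, as did 18.4% and 14.4% of all bound genes. The median HIST value lay above only 1.28% and 1.33% of bound genes. HIST4H4 had the highest HIST value with FH-DHX36-E335A (0.350) and HIST1H4A with FH-DHX36 (0.210). HIST1H4J, with 31 reads, had the lowest value of all 9131 genes bound by FH-DHX36-E335A (0.000868). HIST1H4C, at 0.106 and 0.0956, stood near the top of the HIST genes and far below the median gene. As used here, the reads in the score were scaled to the total and not to transcript length. The median reference transcript had 489.5 nt for HIST genes and 1212 nt for replacement genes, against 2903 nt over all protein-coding transcripts. The part of length in the low HIST scores was not tested.

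The abundance behind the score could be recovered from the reads and NXPM, and it was very high for HIST genes. The authors quantified their RNA-seq with Cufflinks, and the part of transcript length in the recovered values was not tested. In the unit of the RNA-seq used by the authors, the median of bound HIST genes was 3761 with FH-DHX36-E335A and 4973 for FH-DHX36, against 5.89 and 7.30 over all bound genes. HIST1H4B (26655), HIST1H4C (25061) and HIST1H4H (24806) had the highest values of the family. HIST genes made up 15 of the 50 most abundant bound genes in each line. The 2 lines gave the same abundance for each of the 32 histone genes bound in both, to within 1.37e-05 percent, so 1 abundance set lies behind both scores. Across HIST genes, reads followed abundance (Spearman's rho 0.688 over 37 genes and 0.611 over 24), while over all bound genes rho was 0.317 and 0.212. These are descriptions across genes that share libraries and the abundance estimate. The RNA-seq was made from rRNA-depleted RNA, which retains RNA without a poly(A) tail, and how reads shared by near-identical histone genes were divided in it is not given in the sources used here.

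**Figure D3:**
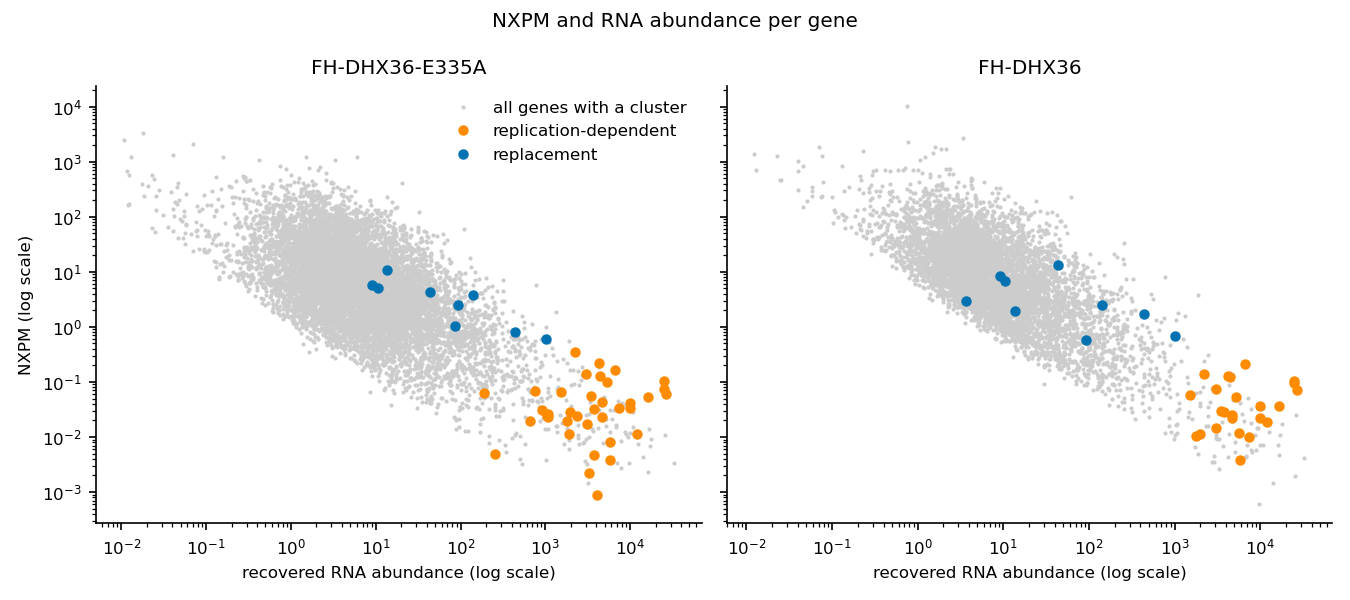
NXPM against recovered RNA abundance for each gene with a cluster, on log axes, with FH-DHX36-E335A on the left and FH-DHX36 on the right. The downward slope is built in, since abundance is the divisor of NXPM. Replication-dependent genes (orange) sit at the lower right, all below an NXPM of 1, and replacement genes (blue) lie within the cloud of all genes (grey), from which 57 genes on the left and 31 on the right with an abundance below 0.01 were left out.

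Replacement histone genes had their largest share of reads in the 3'UTR and scores within the range of most genes. Of the 17, 9 (52.9%) were bound in each line, 8 of them in both, against 34.5% of all genes with FH-DHX36-E335A and 22.4% for FH-DHX36. They received 19582 reads with FH-DHX36-E335A, 0.224% of all reads (0.221 to 0.227), and 5594 with FH-DHX36, 0.259% (0.252 to 0.266). The 3'UTR held 54.8% and 44.0% of their reads, against 53.3% and 38.4% over all genes. Reads outside the categories made up 32.5% (31.9 to 33.2) with FH-DHX36-E335A and 16.5% (15.6 to 17.5) with FH-DHX36, against 21.4% and 16.7% over all genes. Without H2AFZ the first share was 19.6%. By gene, 3 of 9 (33.3%) and 1 of 9 (11.1%) had over 50% of reads outside, against 12.6% and 10.4% of all bound genes. The median NXPM was 3.78 with FH-DHX36-E335A and 2.54 for FH-DHX36, and 2 of 9 genes (22.2%) had an NXPM under 1 in each line, against 18.4% and 14.4% of all bound genes. The median abundance of the bound replacement genes was 85.5 and 43.4, against 5.89 and 7.30 over all bound genes. The part of expression in their share bound was not tested.

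H2AFZ, which encodes H2A.Z, had the most replacement reads with FH-DHX36-E335A, 5269 in 7 clusters, and 1480 in 4 clusters with FH-DHX36. Its reads changed category, with 3562 outside, 613 in the CDS, 1094 in the 3'UTR and 0 in the 5'UTR with FH-DHX36-E335A, and 1069 of 1480 in the 5'UTR with FH-DHX36. The short 5'UTR holds the G-run stretch printed above, and the CDS holds 1 stretch as well. H2AFV, which encodes the related H2A.Z.2, had 2040 reads in 32 clusters with FH-DHX36-E335A, 913 in the 3'UTR and 862 in introns, and 114 reads in 4 clusters with FH-DHX36. The share of reads was 4.42-fold higher for H2AFV with FH-DHX36-E335A (3.66 to 5.38) and 0.879 times as large for H2AFZ (0.829 to 0.932).

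H2AFX, which encodes the damage-marked H2A.X and is the replacement gene with a stem-loop, had the most replacement reads with FH-DHX36, 1592 in 13 clusters. It had 3035 reads in 7 clusters with FH-DHX36-E335A, a ratio of shares of 0.471 (0.443 to 0.500). Unlike HIST genes it had most of its reads in the 3'UTR, 2089 of 3035 and 908 of 1592. Its 3'UTR of 1089 nt holds 6 G-run stretches and its CDS holds 3. All 6 lie past the stem-loop, so an H2AFX mRNA that ends at the stem-loop would not hold them. Which of its 2 mRNA forms the reads came from was not tested. The HIST genes with the most reads had 3'UTRs of 78 nt (HIST1H4C) and 62 nt (HIST1H4H). NXPM of H2AFX was 0.792 and 1.68.

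The 2 linker variants differed between the lines in opposite directions. H1F0, encoding H1.0 of non-dividing and differentiated cells, had 1269 reads in 6 clusters with FH-DHX36-E335A and 57 in 2 clusters with FH-DHX36, a ratio of 5.50 (4.21 to 7.30). All of its reads lay in the 3'UTR in both lines. Its G-run stretches were found in the 3'UTR (5, of which 2 had runs of at least 3 G), the 5'UTR (3) and the CDS (1). Whether its reads lay at such stretches was not tested. H1FX, encoding H1.10, had 1628 and 1234 reads, a ratio of 0.326 (0.302 to 0.351). Of its reads with FH-DHX36, 355 were in the 5'UTR and 755 in the 3'UTR, while with FH-DHX36-E335A 0 were in the 5'UTR and 904 were outside the categories. Its NXPM of 13.2 with FH-DHX36 was the highest of any histone gene in that line, and H1F0 was highest with FH-DHX36-E335A at 10.6.

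H3.3 is encoded by H3F3A and H3F3B, and the 2 genes differed in the table. H3F3B had 4637 reads in 20 clusters with FH-DHX36-E335A, 4062 of them in the 3'UTR, and 770 reads in 7 clusters with FH-DHX36, 462 of them in the 3'UTR. H3F3A had no cluster in either line, and only 1.90% of the 20-nt windows of its reference transcript occurred at no more than 1 place in the genome (76.4% for its longest transcript). H3F3C, an intronless H3 gene, had 464 and 165 reads, all outside the categories. The pseudogene H3F3AP4 had none.

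The macroH2A genes H2AFY and H2AFY2, which encode H2A with a large extra domain, had moderate counts. H2AFY had 773 reads in 9 clusters with FH-DHX36-E335A and no cluster with FH-DHX36. H2AFY2 had 467 and 159 reads, 425 and 159 of them in the 3'UTR. H2AFJ was the only histone gene bound in FH-DHX36 alone, with 23 reads in 1 cluster in the 3'UTR. The oocyte gene H1FOO, the spermatid gene H1FNT and the testis genes H2AFB1, H2AFB2 and H2AFB3 had no cluster.

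As a family, replacement genes took a 0.864-fold share of reads with FH-DHX36-E335A relative to FH-DHX36 (0.839 to 0.890), and without H2AFX the ratio was 1.02. Of the 8 bound in both, 2 (25.0%), H1F0 and H2AFV, were at least 2-fold higher with FH-DHX36-E335A and 2 (25.0%), H1FX and H2AFX, at least 2-fold higher with FH-DHX36. Over all genes these shares were 29.3% and 23.0%.

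**Figure D4:**
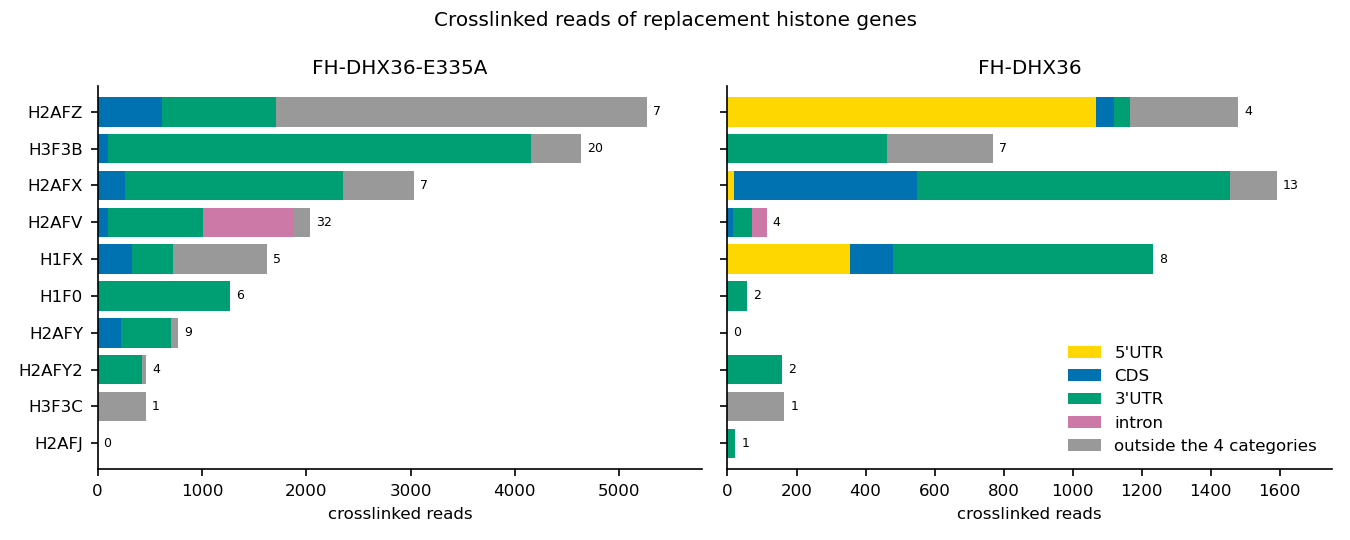
Crosslinked reads of the 10 replacement histone genes with a cluster in at least 1 PAR-CLIP, drawn as for the replication-dependent genes, with the number of clusters after each bar and different read axes in the 2 panels. Green, the 3'UTR, is present in 9 of the 10 genes, and the 5'UTR (yellow) is large only with FH-DHX36, in H2AFZ with 1069 reads and H1FX with 355.

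The genes of the HIST2 locus on chromosome 1 had no cluster at all. None of the 13 HIST2 genes, 11 of them protein-coding, was bound in either line, against 34 of 56 in the HIST1 locus on chromosome 6 with FH-DHX36-E335A. In the HIST3 locus, HIST3H2A had 400 and 146 reads, HIST3H2BB 154 reads with FH-DHX36-E335A alone, and HIST3H3 none. Several HIST2 genes are exact copies of each other in their coding sequence: HIST2H2AA3 and HIST2H2AA4, HIST2H3A and HIST2H3C, and HIST2H4A and HIST2H4B. For these 6 genes 0% of the 20-nt windows occurred at no more than 1 place in the genome, and the values were 6.34% for HIST2H2BF, 9.33% for HIST2H3D and 45.1% for HIST2H2AC. HIST2H2BE (83.3%) and HIST2H2AB (78.0%) had mostly unique windows and were at 0 as well. The HIST2 genes other than HIST2H2BA lie between chr1:149754245 and chr1:149859515 (GRCh37). Of 33 other protein-coding genes of the table within 1000 kb of this stretch, 6 were bound by FH-DHX36-E335A and 5 by FH-DHX36, against 34.5% and 22.4% of all genes. The 6 lie on the same side of the stretch, and the nearest of them, RPRD2, starts at chr1:150335567. FCGR1A and BOLA1, which overlap HIST2H2BF and HIST2H2AB on the opposite strand, were not bound.

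Over all HIST genes, the share of unique sequence overlapped widely between bound and unbound genes. The median share of unique windows was 74.4% in 35 HIST genes with a cluster and 68.6% in 35 without. Of those without, 9 had under 10% unique windows, against 1 of those with a cluster, HIST1H4J at 5.41%. On the other hand 21 of the 35 unbound genes had at least 50% unique windows, 18 of them in the HIST1 locus. The 4 leading H4 genes had 84.6% to 90.5%. Reads that match several copies cannot be placed by sequence alone, and how the pipeline treated them is not given in the sources used here.

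**Figure D5:**
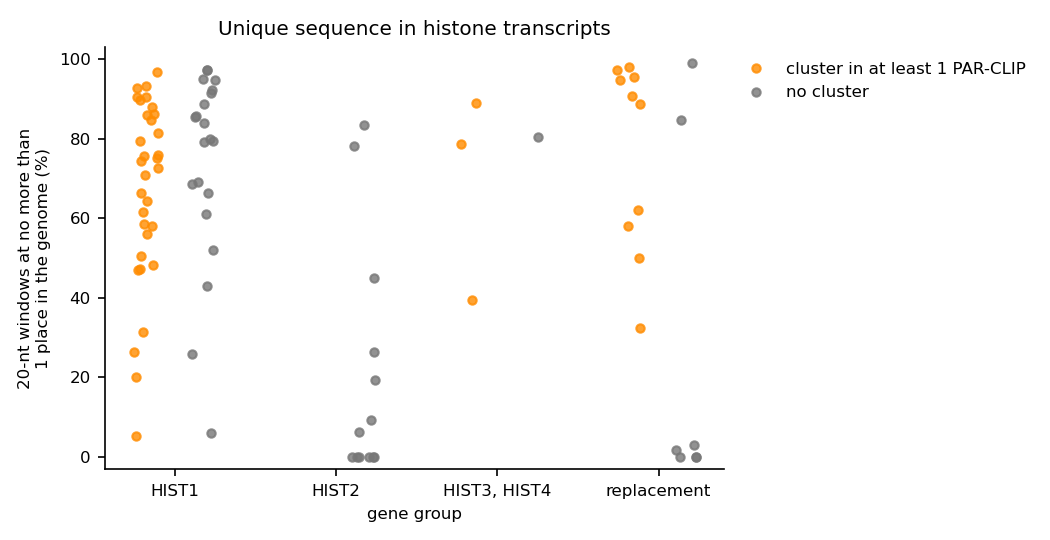
Share of 20-nt windows of the reference transcript that occur at no more than 1 place in the genome, for each matched histone gene (1 point), with (orange) and without (grey) a cluster, by gene group; points are spread sideways for legibility. All HIST2 points are grey and 10 of the 13 lie below 30%, whereas HIST1 points of both colours span the range.

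Most genes of a list of 40 that make, process, store or degrade histone mRNAs and proteins were bound. Of the 40, 37 (92.5%) had a cluster with FH-DHX36-E335A and 22 (55.0%) had one for FH-DHX36, against 34.5% and 22.4% of all genes, with a median NXPM of 4.73 and 7.80. The median abundance of the bound genes of the list was 15.3 and 16.1, against 5.89 and 7.30 over all bound genes. The part of expression in the share bound was not tested. CASP8AP2, a cofactor of histone transcription also known as FLASH, had the most reads in each line, 4264 and 3471, all outside the categories. SLBP had 2401 reads in 13 clusters with FH-DHX36-E335A and 905 in 5 clusters with FH-DHX36, at an NXPM of 10.4 and 15.9. SNRPB (3603 and 548 reads) and SNRPF (2911 and 717), Sm proteins of small nuclear RNPs, were the others among the top 3 of a line. Of the 22 genes bound in both, the share of reads was at least 2-fold higher for 5 in the E335A line and for 3 in the other line, against 29.3% and 23.0% over all genes.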

How the data were processed

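PAR-CLIP libraries came from 2 replicates each of HEK293 cells that expressed FH-DHX36 or FH-DHX36-E335A. The authors aligned reads to hg19, called clusters with PARalyzer within PARpipe at default settings and categorized them with GENCODE release 19, and the labels name bcl2fastq 2.17.1. The deposited table lists, per gene and cell line, numbers of clusters and counts of crosslinked reads without normalization, in total and for 5'UTR, CDS, 3'UTR and intron. NXPM, a score, was deposited as the authors' quotient of scaled crosslinked reads over RNA abundance from RNA-seq. Whole-gene NXPM was used here, and regional NXPM was not.

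Abundance was recovered as reads scaled to a total of 1000000, over NXPM, minus 0.001. Shares have 95% Wilson intervals, ratios of shares exact binomial intervals, and both cover counting error only, since PCR reads carry no molecular identifiers. With 1 value per gene and line, no test was run. Replicates were not separated, so their agreement was not analysed here.

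Older symbols were matched through RefSeq synonyms to GENCODE release 44 mapped to GRCh37, whose canonical transcripts gave sequences, and 87 of 90 genes matched (not HIST1H2BF, HIST1H2BG and HIST1H4F). Windows of 20 nt were counted on both strands of the GRCh37 primary assembly. The stem-loop, window and abundance steps were tested on simulated data. Python 3, pandas, scipy and pysam were used.

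The genes and lists were chosen with earlier results of these data known. Genes were named by a rule: the 10 HIST genes with the most reads in each line and the top gene of each type, HIST genes with at least 200 reads and a cluster in 1 line alone, those with 5'UTR or intron reads, the HIST2, HIST3 and HIST4 genes, every replacement gene, and the 3 pathway genes with the most reads in each line. HIST1H1A, HIST1H1B, HIST1H1T, HIST1H2AC, HIST1H2AE, HIST1H2AG, HIST1H2BJ, HIST1H2BL, HIST1H3A, HIST1H3F, HIST1H3H, HIST1H4D, HIST1H4J, FCGR1A, BOLA1 and RPRD2 fall outside this rule and were named after their values were seen. The 40 pathway genes comprise transcription, 3' end processing, translation and decay, and chaperone genes from textbook knowledge.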

Additional observations from a re-analysis of the deposited data

How the results depend on the processing

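The cluster and read values are listed once per line. The paper takes its binding sites from those shared by both replicates, which it reports as well correlated. Whether the listed values per gene were combined in the same way is not stated. Depth can bear on counting error and on which clusters are listed, and its part was not tested. The spread between replicates of the listed values is unknown. No paired analysis was possible because 1 value per gene and cell line is listed, with no replicate columns. Of 60 alternatives to 18 results, 37 stayed within counting error, the gene-to-gene interval of a median or a factor of 1.5 of a count, 20 moved beyond it and 3 reversed. Bound counts, median NXPM and stem-loop counts were within these limits under every alternative run for them.

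The share of reads outside the 4 categories depended most on how it was counted. Counted in clusters it was 38.6% (FH-DHX36) and 46.0% (FH-DHX36-E335A) for HIST genes and 9.52% and 12.1% for replacement genes, and as a median per gene 37.8%, 89.0%, 0% and 10.4% in the same order. Without the gene with the most reads it was 69.0% (without HIST1H4H), 81.0% (without HIST1H4C), 19.7% (without H2AFX) and 19.6% (without H2AFZ).

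The HIST ratio of shares of reads, 1.10, reversed to 0.441 by clusters and to 0.728 within the 4 categories. It was 1.17 as a median per gene bound in both, 1.84 per gene bound in either with a pseudocount of 1 read and 1.21 without HIST1H4H. The replacement ratio, 0.864, was 0.603 by clusters, 0.740 within the 4 categories, 0.802 and 0.800 as the same medians, and reversed to 1.02 without H2AFX. The median share of unique windows of HIST genes was 71.8% with 20-nt and 89.3% with 30-nt windows. The causes were not tested, except that longer windows match fewer places by construction.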
